A study of Mus musculus with 10 samples.

Results

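The 45 genes described here carry out DNA replication and supply its nucleotides. They were chosen by name for these functions, with earlier results of these data known. Each was found by its Ensembl identifier in the deposited count table of 22165 genes. All 45 had enough counts to be tested. They fall into 6 roles: 16 genes of origin licensing and firing, 7 of polymerases and primase, 9 of the clamp, clamp loading and strand joining, 5 of nucleotide synthesis, 4 of checkpoint and fork protection, and 4 of chromatin assembly and maintenance methylation.

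The libraries were made from polyadenylated RNA of peritoneal cavity macrophages of C57BL/6 mice, sorted on CD64, ICAM-2 and CD115, proteins that macrophages and monocytes carry on their surface. Mice with a floxed allele, called wild type here, were compared with mice that also carried LysM-Cre, called knockout. LysM-Cre is a Cre recombinase expressed from the Lyz2 locus in myeloid cells, so each comparison of genotypes is also one of mice with and without Cre, and the deletion is not limited to resident macrophages. Both genotypes received an intraperitoneal injection of saline (basal) or of IL-4 bound to an antibody against it, a complex that prolongs the action of the cytokine, and the cells were washed out with 5 ml of PBS 36 hours later. Each genotype had 2 basal and 3 IL-4 libraries, 10 in all. Age and sex are not given here, and nothing in the labels ties a replicate to an animal of its own, so the p-values reflect the spread among these libraries, which may be technical.

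Replication starts when the origin recognition complex, Cdc6 and Cdt1 load a ring of Mcm proteins onto DNA, and the ring becomes an active helicase when Cdc45 and the GINS proteins join it. Polymerase alpha with primase starts each new strand, replication factor C loads the sliding clamp Pcna for the polymerases that follow, and the flap nuclease and DNA ligase join the pieces of the lagging strand. Ribonucleotide reductase, thymidylate synthase and thymidine kinase make the deoxynucleotides, checkpoint mediators protect stalled forks, and many of these genes are switched on by E2F factors as a cell enters S phase. Resident peritoneal macrophages are mostly quiescent, and IL-4 complexes are known to make them divide.

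Levels are given in CPM, the read count of a gene scaled to a common library size after TMM correction of the totals. The 10 libraries held 8762403 to 15024073 counted reads, and the knockout basal library 1 was the shallowest. The macrophage markers, 10 genes that include the 3 sorted proteins, were detected in every group. They summed to 31200 and 28300 CPM in wild-type basal, 11100 to 12300 CPM in wild-type IL-4, 7900 and 15100 CPM in knockout basal and 7930 to 9090 CPM in knockout IL-4 libraries. Lyz2, the locus that carries Cre, is 1 of the 10 and made up most of the wild-type basal sums. It gave 5910 to 7050 CPM in wild-type IL-4 and 2850 to 4100 CPM in knockout IL-4 libraries. Differences between the sums therefore largely follow this 1 gene. Lyz2 measured 23600 and 21900 CPM in wild-type basal libraries and 2660 and 9680 CPM in knockout basal libraries, a difference that passed the test (log2 -1.88 ± 0.42, SE; adjusted p = 0.0249) and did not pass without either wild-type basal library (highest adjusted p over the fits tried, 0.145). Markers of other cells differed between the groups as well. The 10 B cell markers analysed here summed to 1660 and 2000 CPM in the knockout basal libraries against 253 to 745 CPM in the other 8, and all 10 were higher in knockout than in wild-type basal libraries, 9 of them falling with IL-4 in knockout. Mast cell markers summed to 155 and 256 CPM in knockout basal libraries, 26.8 and 27.7 CPM in wild-type basal libraries, and at most 3.99 CPM after IL-4. Markers of T and NK cells summed to 98.7 and 99.6 CPM in knockout basal libraries and to 21.8 to 37.9 CPM elsewhere. Most of the knockout basal sums was Cd2 alone, with 84.5 CPM in library 1 and 82.4 CPM in library 2. Cd3g measured 4.87 and 3.94 CPM there and 4.82 and 7.11 CPM in wild-type basal libraries. Of the 7 tested markers of this list, 6 had positive values in the basal genotype comparison and 1 was called higher. The 7 neutrophil markers summed to 256 and 362 CPM in wild-type basal, 203 to 243 CPM in wild-type IL-4, 185 and 266 CPM in knockout basal and 137 to 191 CPM in knockout IL-4 libraries, of which Csf3r gave 103 to 320 CPM. Of the 7, S100a8, S100a9 and Mmp8 were highest in the wild-type IL-4 libraries: all 3 rose with IL-4 in wild type, were lower in knockout after IL-4 and had a negative interaction. Mmp8 measured 17.4, 13.4 and 11.6 CPM there and at most 3.30 CPM in the other 7 libraries. Markers of other cells thus stood apart in the knockout basal and in the wild-type IL-4 libraries, and each of the 5 comparisons uses at least 1 of these groups. The part of these markers in the results on replication genes was not tested. In RNA from a sorted population, fewer cells in S phase and less of a transcript per cell cannot be told apart.

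The replication genes were scarce transcripts. The median CPM of a member over the 10 libraries ran from 0.706 for Orc1 to 78.0 for Mcm3, and 24 of the 45 had a median under 10 CPM. Summed over all members, the level was 620 and 661 CPM in wild-type basal libraries and between 609 and 661 CPM in wild-type IL-4 libraries. It was 404 and 534 CPM in knockout basal libraries and between 758 and 986 CPM in knockout IL-4 libraries. The knockout basal libraries thus held the lowest sums and the knockout IL-4 libraries the highest, with no overlap between them and the wild-type libraries. By gene, the lowest of the 4 group means lay in knockout basal libraries for 25 members and the highest in knockout IL-4 libraries for 21. Knockout basal library 1 alone held the lowest value of 20 members, and knockout IL-4 library 3 held the highest value of 12.

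**Figure D1:**
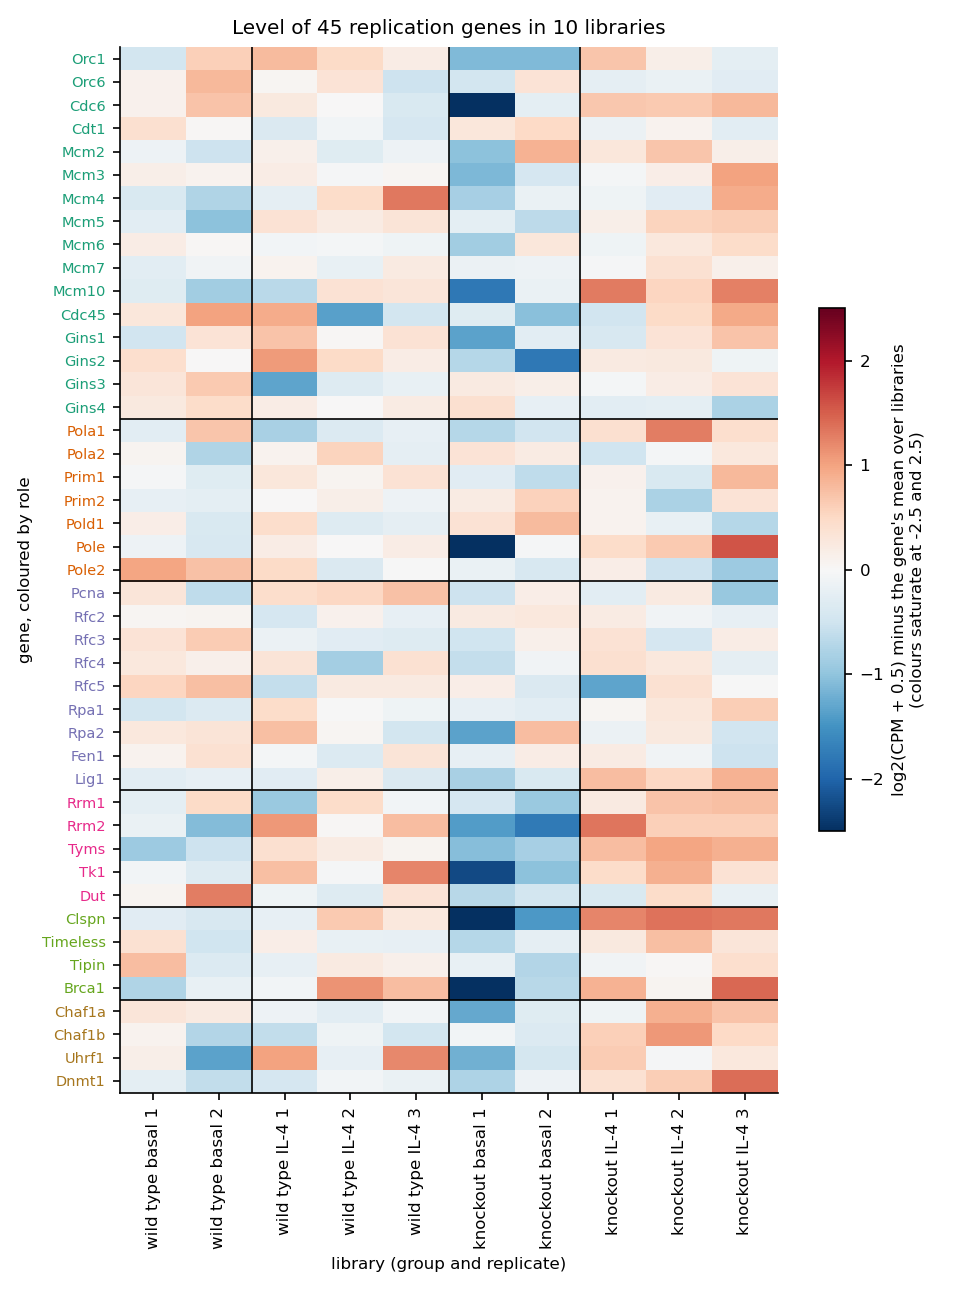
Level of each of the 45 members (rows, grouped and coloured by role in the order of the text) in each of the 10 libraries (columns), as log2(CPM + 0.5) minus the mean of that gene over the libraries, with colours saturating at the ends of the scale. The knockout basal columns are mostly blue and the knockout IL-4 columns mostly red; the wild-type columns show no such shift, and their sums over members run from 609 to 661 CPM.

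IL-4 raised 11 of the 45 members in knockout libraries and lowered 0, by edgeR's quasi-likelihood test with Benjamini-Hochberg adjustment over all 11614 genes tested. Over all genes, 4.09% were called higher and 3.51% lower in this comparison. The 11 were Mcm3 and Mcm10 of licensing and firing, Pola1 of the polymerases, Lig1 of strand joining, Rrm2, Tyms and Tk1 of nucleotide synthesis, Clspn and Brca1 of the checkpoint, and Chaf1a and Dnmt1 of chromatin assembly and methylation. Their log2 changes ran from 1.18 for Mcm3 to 3.27 for Clspn. The median of all 45 was 0.79, and 32 had a positive value. At an unadjusted p under 0.05, 20 members were higher and 1 lower, beside 2639 of all 11614 genes in either direction. DESeq2 called 14 higher and limma voom 9, and neither called any lower. Without knockout basal library 1 the count was 3 (Rrm2, Tyms and Clspn), without knockout IL-4 library 3 it was 6, and with the replicate number as a block it was also 6.

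With IL-4 in wild-type libraries, edgeR called 0 members higher and 0 lower, where 3.26% of all genes were called higher and 2.8% lower. At an unadjusted p under 0.05, 5 members were higher and 4 lower. In either direction these were 9 of the 45 members, beside 2475 of all 11614 genes. DESeq2 called 1 member higher (Tyms) and 0 lower, and limma voom called 0 in either direction. The median of the members was 0.09, and 23 of 45 values were positive. Medians over all genes tested lay between -0.02 and 0.02 in all 5 comparisons. The wild-type and knockout IL-4 comparisons share no library.

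**Figure D2:**
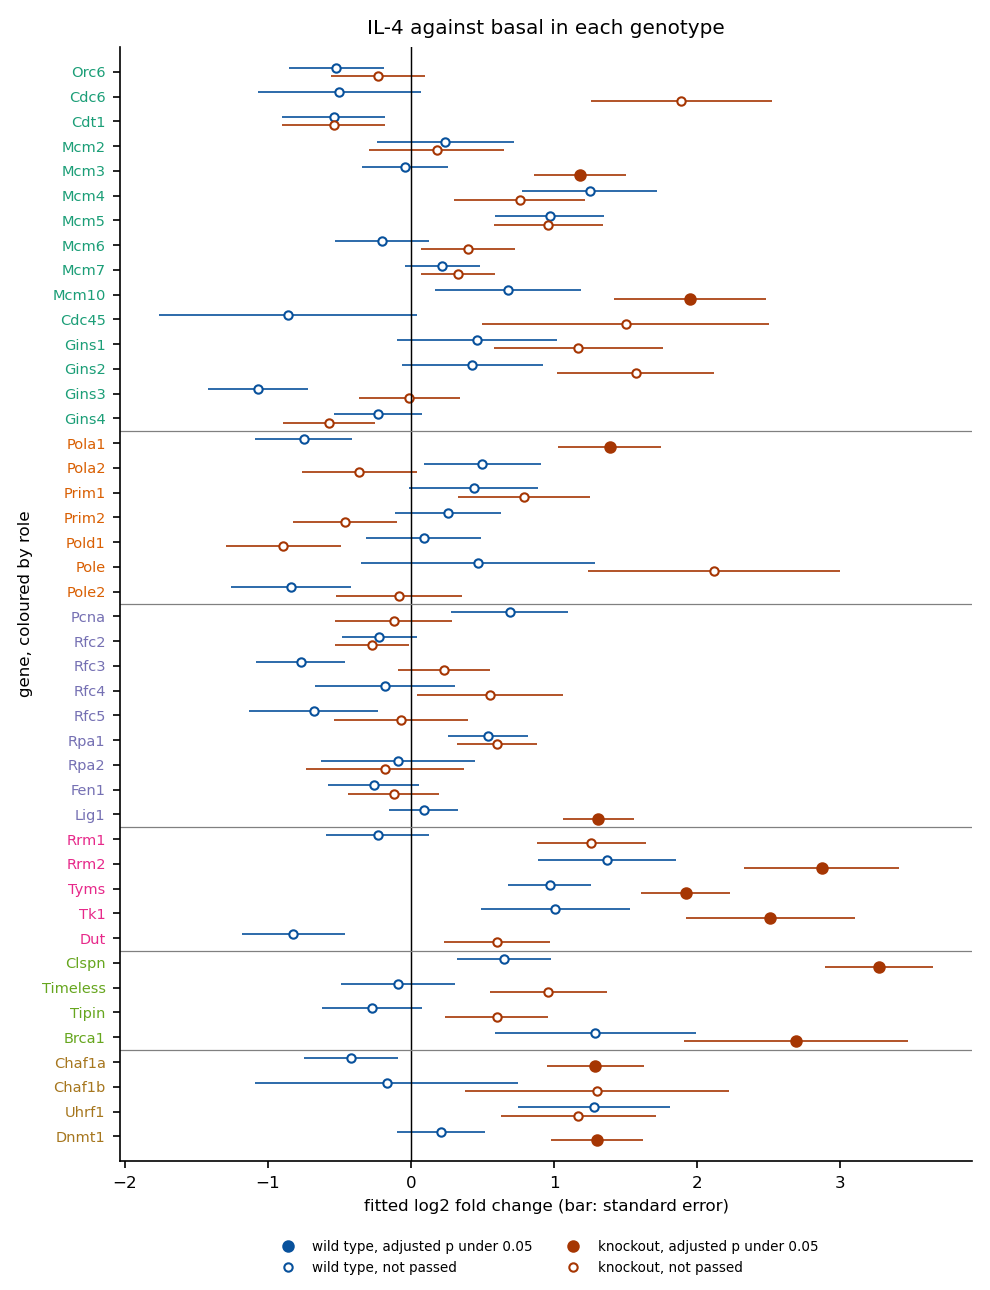
Fitted log2 change with IL-4 (horizontal axis, bars are standard errors) in wild-type (blue) and knockout (brown) libraries for 44 members, with filled points for an adjusted p under 0.05; Orc1 is left out because it had no count in the knockout basal group. The 11 filled points are all brown and lie between 1.18 and 3.27.

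The interaction, which tests how far the change with IL-4 in knockout exceeds the one in wild type, called 2 members higher, Clspn and Pola1, and 0 lower. Over all genes it called 1.02% higher and 1.78% lower, and 1778 of the 11614 had an unadjusted p under 0.05. At an unadjusted p under 0.05, 13 members were higher and 0 lower, DESeq2 called 4 higher and limma voom 2, neither called any lower, and the median of the members was 0.87 with 33 positive values. For the other 9 genes that rose with IL-4 in knockout, the interaction ran from 0.95 for Tyms to 1.71 for Chaf1a, and its adjusted p ran from 0.0659 for Chaf1a to 0.563 for Brca1. For those 9, the rise is therefore not shown to differ between genotypes.

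Between genotypes after IL-4, 0 members were called higher and 0 lower, where 0.353% and 0.474% of all genes were. An unadjusted p under 0.05 was reached by 1673 of all 11614 genes. At an unadjusted p under 0.05, 8 members were higher in knockout (Mcm10, Gins3, Pola1, Lig1, Tyms, Clspn, Chaf1a and Dnmt1) and 1 was lower (Pcna). DESeq2 called 4 of these higher, namely Pola1, Lig1, Clspn and Dnmt1, and 0 lower, and limma voom called 0 in either direction. The median of the members was 0.16. Without knockout IL-4 library 1, Dnmt1 was called higher (1.26 on the log2 scale, adjusted p = 0.041).

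Under basal conditions 0 members were higher in knockout and 1, Clspn, was lower, where 2.61% of all genes were called higher and 1.53% lower. At an unadjusted p under 0.05, 0 members were higher and 11 lower, beside 2057 of all 11614 genes in either direction. DESeq2 called 0 higher and 2 lower, Clspn and Dut, and limma voom called 0 in either direction. The median of the members was -0.38, and 34 of 45 values were negative. Each genotype comparison shares its libraries with the IL-4 comparisons, so a low knockout basal value enters both the basal difference and the IL-4 effect in knockout.

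**Figure D3:**
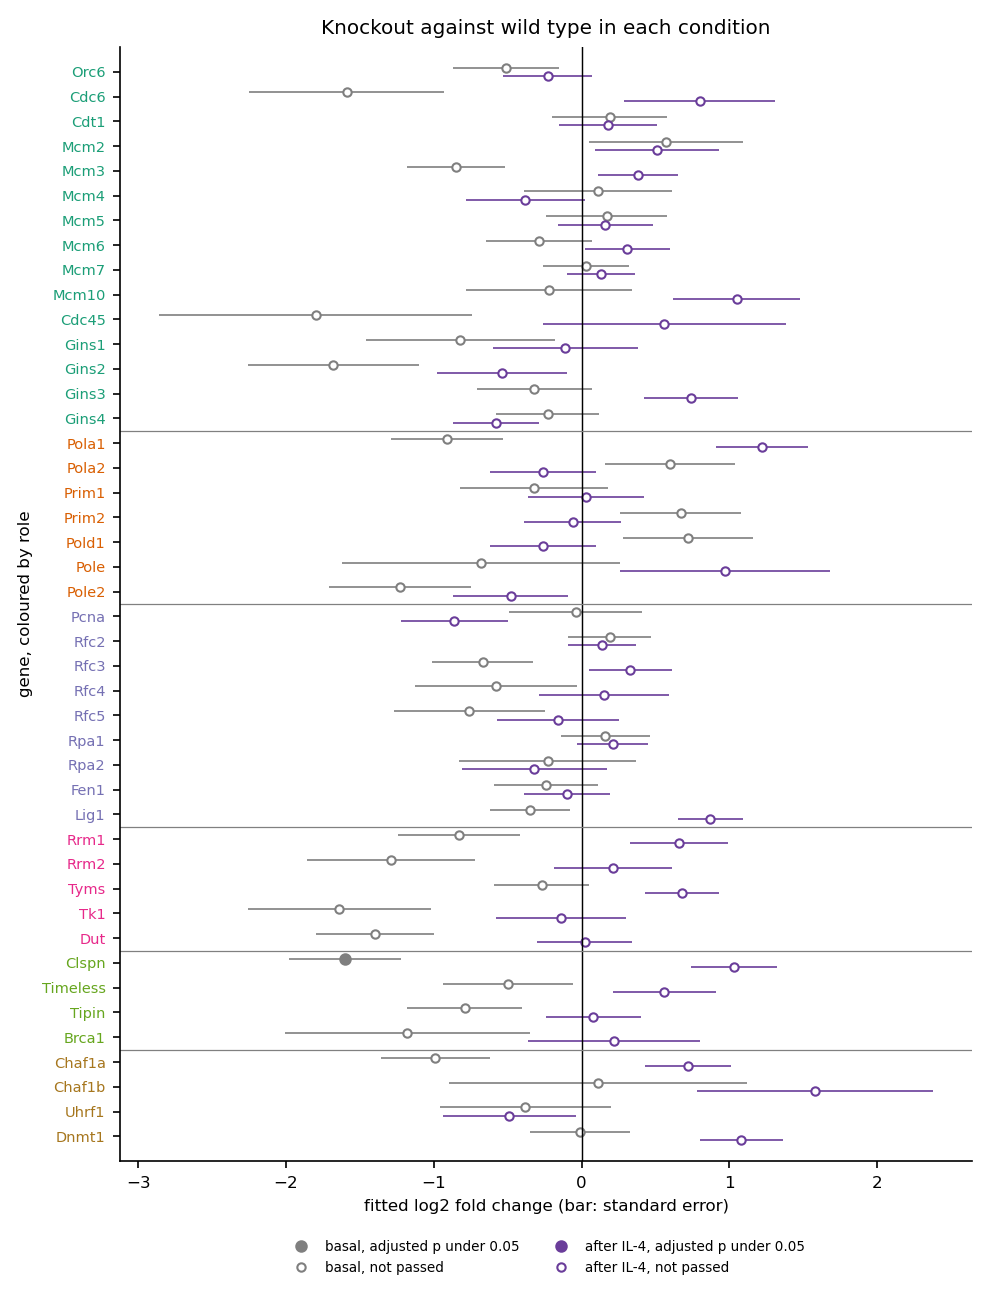
Fitted log2 difference of knockout from wild type (horizontal axis, bars are standard errors) under basal conditions (grey) and after IL-4 (purple) for 44 members, without Orc1, with filled points for an adjusted p under 0.05. The only filled point is Clspn under basal conditions, at -1.60; most grey points lie left of 0 and most purple points right of it.

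Many promoters of these genes hold the short words to which E2F factors bind, and a few are shown for members that rose with IL-4 in knockout and for members that passed in no comparison. RefSeq promoters (GRCm38.p6, 250 bases before to 50 after an annotated start) were available for 37 of the 45 members; Gins1, Gins2, Gins4, Mcm4, Pole, Prim2, Rfc2 and Tipin had no entry. The words searched were TTTCCCGC, TTTGGCGC, TTTCGCGC and TTTGCCGC on both strands, and matches may overlap each other. At least 1 word was found in 16 of the 37 members (43.2%) and in 704 of 27025 genes with a promoter (2.6%). Among the 11 members that rose with IL-4 in knockout, 5 had a word, and among the other 26 with a promoter, 11 did. The words TTTCGCGC, TTTGGCGC and TTTCCCGC were found in 9, 7 and 6 members, and TTTGCCGC in 0. The CCAAT box, a word bound by NF-Y, was found in 23 of the 37 members (62.2%) and in 41.1% of genes. A match says only that these letters are in the window.

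For the 5 members that rose and had a word, the match nearest the start is given 5′ to 3′ on the strand of the gene, with whole matches in capitals. They lie at chr4:126556990-126557019 (plus strand) for Clspn, chr7:13278841-13278870 (plus) for Lig1, chr1:20820275-20820304 (minus) for Mcm3, chrX:93632275-93632304 (minus) for Pola1 and chr9:20952574-20952601 (minus) for Dnmt1. The Pola1 match lies before the annotated start and the other 4 lie after it, within the first 50 transcribed bases.
Clspn: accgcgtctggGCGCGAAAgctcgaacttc
Lig1: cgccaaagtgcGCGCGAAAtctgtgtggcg
Mcm3: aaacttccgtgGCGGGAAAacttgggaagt
Pola1: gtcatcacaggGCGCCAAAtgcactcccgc
Dnmt1: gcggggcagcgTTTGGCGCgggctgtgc

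Members with a word that passed in none of the 5 comparisons are shown for contrast: Mcm5 at chr8:75109349-75109378 (plus), Mcm6 at chr1:128359734-128359763 (minus) and Orc1 at chr4:108579416-108579445 (plus). In Mcm5 a pair of words on opposite strands overlap, so the capitals run longer.
Mcm5: caagaacTTTCGCGCCAAAacgtccagcct
Mcm6: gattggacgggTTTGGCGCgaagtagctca
Orc1: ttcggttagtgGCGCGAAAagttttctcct

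**Figure D4:**
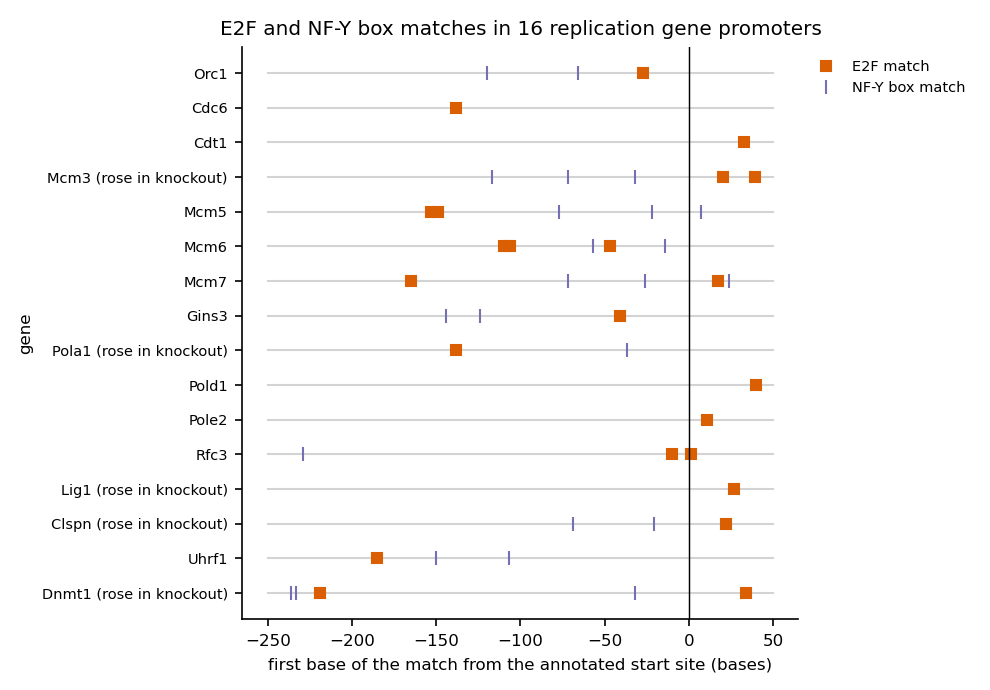
Position of each E2F match (squares) and NF-Y box match (ticks) in the promoters of the 16 members with an E2F match, as the distance in bases of the first base of the match from the annotated start (vertical line); genes that rose with IL-4 in knockout are marked. Matches lie on both sides of the start in genes that rose and in genes that did not.

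Among the 16 licensing and firing genes, 2 rose with IL-4 in knockout libraries and 0 passed in the other 4 comparisons; the median of the 16 with IL-4 was 0.86 in knockout and 0.09 in wild type. Mcm3, a subunit of the helicase ring (chr1:20802968-20820312), measured 82.2 and 78.8 CPM in wild-type basal, 84.8, 73.2 and 77.2 CPM in wild-type IL-4, 34.0 and 55.5 CPM in knockout basal and 72.3, 83.2 and 150 CPM in knockout IL-4 libraries. The knockout basal libraries lay below all 8 others, while the knockout IL-4 libraries overlapped the wild-type ones. With IL-4 in knockout it rose by 1.18 ± 0.32 on the log2 scale (adjusted p = 0.0321), against -0.04 ± 0.30 in wild type. The value was 0.87 without knockout basal library 1 (adjusted p = 0.277), without knockout basal library 2 it was 1.59 (0.0513), and without knockout IL-4 library 3 it was 0.80 (0.102), none of which passed.

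Mcm10, which helps the helicase and polymerase alpha work at the fork (chr2:4989714-5012791), measured 5.19 and 3.34 CPM in wild-type basal, 3.89, 8.51 and 8.13 CPM in wild-type IL-4, 1.51 and 5.72 CPM in knockout basal and 16.7, 9.68 and 16.2 CPM in knockout IL-4 libraries. All 3 knockout IL-4 libraries lay above the other 7. The rise with IL-4 in knockout was 1.95 ± 0.53 (adjusted p = 0.0353), and the difference between genotypes after IL-4 was 1.05 ± 0.43 (adjusted p = 0.289). The IL-4 value was 1.30 without knockout basal library 1 (adjusted p = 0.254), and it also missed the threshold without knockout IL-4 library 1 (1.80, adjusted p = 0.0697) or 3 (1.84, adjusted p = 0.0838).

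Orc1 encodes the largest subunit of the origin recognition complex, which binds origins (chr4:108579423-108614833). It had 0.283 and 1.11 CPM in wild-type basal, 1.35, 0.997 and 0.721 CPM in wild-type IL-4 and 1.22, 0.691 and 0.401 CPM in knockout IL-4 libraries, and no count in either knockout basal library. Counts were summed within groups, and knockout basal was set to a floor of 3 counts (0.147 CPM). This floor is a conventional upper bound for an observed 0, not an absolute limit. At that floor, knockout basal was 4.89-fold lower than wild-type basal, which held 16 counts, 13 of them in library 2. Wild-type basal library 1 had 3 counts (0.283 CPM), near the same floor in knockout basal library 1 (0.324 CPM) or 2 (0.268 CPM). Knockout IL-4, with 26 counts, was 5.01-fold higher than knockout basal at that floor. The floor covers the counting error of the 0 only, not that of the other group or the spread among libraries. Neither difference passed the test over all genes (adjusted p = 0.145 and 0.0925), and DESeq2 called the second (adjusted p = 0.0318).

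The GINS subunits Gins2 and Gins3, parts of the active helicase, passed in none of the 5 comparisons. Gins2 measured 5.10 and 3.68 CPM in wild-type basal, 8.21, 5.32 and 4.22 CPM in wild-type IL-4, 2.05 and 0.716 CPM in knockout basal and 4.37, 4.45 and 3.36 CPM in knockout IL-4 libraries. Its knockout basal values were the lowest of the 10 (basal difference -1.68 ± 0.58, adjusted p = 0.127). In the GENCODE annotation 67.3% of its exonic bases also lie in exons of Gse1 on the other strand, and the strand setting of the counting is not stated, so reads of the 2 genes may be mixed. Gins3 measured 12.4 and 16.1 CPM in wild-type basal, 3.72, 7.91 and 8.75 CPM in wild-type IL-4, 11.8 and 11.1 CPM in knockout basal and 9.65, 11.5 and 12.9 CPM in knockout IL-4 libraries. Here the wild-type IL-4 libraries were the lowest, with -1.07 ± 0.35 for IL-4 in wild type (adjusted p = 0.0835) and 0.74 ± 0.32 between genotypes after IL-4 (adjusted p = 0.305).

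The other 11 licensing and firing genes passed in no comparison: Orc6, the licensing factors Cdc6 and Cdt1, the ring subunits Mcm2, Mcm4, Mcm5, Mcm6 and Mcm7, the helicase activator Cdc45, and Gins1 and Gins4. With IL-4 in knockout their log2 values ran from -0.57 for Gins4 to 1.89 for Cdc6, and in wild type from -0.86 for Cdc45 to 1.25 for Mcm4. Cdc6 had 3 counts in knockout basal library 1 (0.324 CPM) and 3.67 CPM in library 2, against 7.22 to 8.17 CPM in knockout IL-4 and 3.29 to 7.54 CPM in wild-type libraries. Its IL-4 value in knockout missed the threshold (1.89 ± 0.63, adjusted p = 0.0821), and passed by DESeq2 (adjusted p = 0.0279) and without knockout basal library 2 (adjusted p = 0.00383), a fit in which its basal difference and interaction also passed and which compares the 3 counts of library 1.

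The subunits of 1 ring differed widely in level. Per 1000 bases of exon in the GENCODE annotation, the mean over the 10 libraries was 21.1 CPM for Mcm3, 6.51 for Mcm4, 4.21 for Mcm7, 3.42 for Mcm6, 1.77 for Mcm5 and 0.995 for Mcm2. On this scale Mcm3 was the highest of the 45 members in both wild-type groups (means 21.4 CPM per 1000 bases in basal and 20.9 in IL-4 libraries), while Lig1 and Mcm3 lay side by side in knockout basal (12.0 and 11.9) and knockout IL-4 libraries (29.9 and 27.1). The GINS subunits ran from 7.61 CPM per 1000 bases for Gins4 to 1.01 for Gins2. The lengths take in every annotated exon of a gene, 1349 bases for Gins4, 4097 for Gins2 and 6956 for Mcm2. For Gins2, 67.3% of these bases are shared with Gse1. How far the order of subunits follows the annotation was not tested. The IL-4 values of the ring subunits were not tested against each other. Mcm4 and Mcm5 had positive values in both genotypes (1.25 and 0.97 in wild type, 0.76 and 0.96 in knockout). Mcm2 and Mcm7 lay between 0.18 and 0.33 in both, and Mcm6 was at -0.20 in wild type and 0.40 in knockout. Of the 6 subunits only Mcm3 passed, in knockout.

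Of the 7 polymerase and primase genes, 1 rose with IL-4 in knockout and also differed in its IL-4 effect between genotypes. Pola1, the catalytic subunit of polymerase alpha (chrX:93304767-93632155), measured 18.9 and 37.2 CPM in wild-type basal, 12.7, 17.8 and 19.7 CPM in wild-type IL-4, 13.6 and 16.1 CPM in knockout basal and 30.2, 55.7 and 30.7 CPM in knockout IL-4 libraries. The knockout IL-4 libraries lay above the knockout basal and wild-type IL-4 libraries and overlapped the wild-type basal ones, which were themselves far apart. The log2 value with IL-4 was 1.39 ± 0.36 in knockout (adjusted p = 0.0293) and -0.75 ± 0.34 in wild type (adjusted p = 0.221), and the interaction was 2.13 ± 0.50 (adjusted p = 0.0279).

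Both calls on Pola1 were lost in some fits without 1 library, though in some of these the value was larger than in the full fit. The interaction was 1.56 without wild-type basal library 2 (adjusted p = 0.152), and it also missed the threshold without knockout basal library 1 (2.02, adjusted p = 0.13) or 2 (2.26, adjusted p = 0.0849) and without wild-type IL-4 library 1 (1.97, adjusted p = 0.0855) or 2 (2.18, adjusted p = 0.0587). The IL-4 value in knockout missed it without knockout basal library 1 (1.27, adjusted p = 0.196) or 2 (1.51, adjusted p = 0.139) and without knockout IL-4 library 2 (1.03, adjusted p = 0.0794). After IL-4 the genotypes differed by 1.22 ± 0.31 (adjusted p = 0.0803), which passed by DESeq2 (adjusted p = 0.0135).

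Pole, the catalytic subunit of polymerase epsilon, the leading-strand enzyme, measured 2.08 and 1.63 CPM in wild-type basal, 2.71, 2.33 and 2.68 CPM in wild-type IL-4, 2.24 CPM in knockout basal library 2 and 3.35, 3.92 and 7.85 CPM in knockout IL-4 libraries. It had no count in knockout basal library 1, where the floor of 3 counts is 0.324 CPM. The knockout IL-4 libraries lay above the other 7, with an IL-4 value in knockout of 2.12 ± 0.88 (adjusted p = 0.162). Without knockout basal library 2, which leaves only the library with no count, it passed (adjusted p = 0.00658), as did its interaction and basal difference. Its partner subunit Pole2 measured 10.9 and 9.08 CPM in wild-type basal, 7.53, 3.99 and 5.25 CPM in wild-type IL-4, 4.65 and 3.85 CPM in knockout basal and 5.99, 3.53 and 2.56 CPM in knockout IL-4 libraries. The wild-type basal libraries were the highest for Pole2, and the basal difference was -1.23 ± 0.48 (adjusted p = 0.179).

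The other 4 genes of this role, the polymerase alpha subunit Pola2, the primase subunits Prim1 and Prim2, and the catalytic subunit of polymerase delta Pold1, passed in no comparison. With IL-4 in knockout they ran from -0.89 for Pold1 to 0.79 for Prim1. Polymerase alpha and primase act as 1 complex, and the IL-4 values of their genes in knockout were not tested against each other. Pola1 rose, and Pola2 and Prim2 had values of -0.36 and -0.46, neither of which passed.

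Of the 9 genes of the clamp, clamp loading and strand joining, 1 rose with IL-4 in knockout. Lig1, the ligase that seals lagging-strand pieces (chr7:13277283-13311433), measured 63.9 and 66.8 CPM in wild-type basal, 62.8, 85.5 and 60.2 CPM in wild-type IL-4, 44.0 and 58.8 CPM in knockout basal and 131, 111 and 141 CPM in knockout IL-4 libraries. The knockout IL-4 libraries stood above all others and the knockout basal ones below all others. The log2 value with IL-4 was 1.31 ± 0.25 in knockout (adjusted p = 0.00483) and 0.09 ± 0.24 in wild type, and the interaction was 1.22 ± 0.34 (adjusted p = 0.0736). The call was lost without knockout basal library 1 (1.12, adjusted p = 0.0913). The genotypes differed after IL-4 by 0.87 ± 0.22 (adjusted p = 0.0702), which passed by DESeq2 (adjusted p = 0.00555), as did the interaction (adjusted p = 0.0171).

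Pcna, the sliding clamp and a common marker of S phase, did not follow Lig1. It measured 10.9 and 5.48 CPM in wild-type basal, 12.0, 12.8 and 14.8 CPM in wild-type IL-4, 5.95 and 9.84 CPM in knockout basal and 7.21, 10.3 and 4.33 CPM in knockout IL-4 libraries. After IL-4 every knockout library lay below every wild-type library, and the difference did not pass (-0.86 ± 0.36, adjusted p = 0.294). The annotation holds 2 processed pseudogenes of Pcna, with which its reads could be shared.

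Rfc3 and Rfc5 are subunits of the clamp loader. Rfc3 measured 16.7 and 20.5 CPM in wild-type basal, 11.8, 10.6 and 10.4 CPM in wild-type IL-4, 9.08 and 14.3 CPM in knockout basal and 16.9, 9.68 and 14.8 CPM in knockout IL-4 libraries. Rfc5 measured 10.5 and 12.3 CPM, 4.57, 8.44 and 8.34 CPM, 8 and 5.46 CPM, and 2.54, 9.45 and 7.05 CPM in the same order of groups. In both genes the wild-type basal libraries lay above the wild-type IL-4 and knockout basal libraries, and neither passed in any comparison (wild-type IL-4 values -0.77 ± 0.31 and -0.68 ± 0.45). The other loader subunits Rfc2 and Rfc4, the single-strand binding proteins Rpa1 and Rpa2 and the flap nuclease Fen1 passed in none, with IL-4 values from -0.27 for Rfc2 to 0.60 for Rpa1 in knockout and from -0.26 for Fen1 to 0.54 for Rpa1 in wild type. For Fen1, 78.8% of exonic bases are shared with an antisense gene. The median of the 9 genes with IL-4 was -0.07 in knockout and -0.18 in wild type.

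Nucleotide synthesis was the role with the largest share of its genes called: 3 of 5, Rrm2, Tyms and Tk1, rose with IL-4 in knockout, and the median of the 5 was 1.92 there and 0.97 in wild type. Summed, the 5 genes had 62.1 and 109 CPM in wild-type basal, 67.8 to 86.7 CPM in wild-type IL-4, 40.3 and 43.2 CPM in knockout basal and 89.9 to 118 CPM in knockout IL-4 libraries. The knockout basal libraries were below all others. In the basal comparison all 5 had negative values (median -1.29), and none passed.

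Tyms, thymidylate synthase, which makes the thymine nucleotide (chr5:30058202-30073617), measured 5.57 and 7.54 CPM in wild-type basal, 14.5, 12.7 and 11.5 CPM in wild-type IL-4, 4.97 and 5.90 CPM in knockout basal and 19.0, 22.3 and 20.7 CPM in knockout IL-4 libraries. IL-4 libraries lay above basal libraries in both genotypes, and knockout IL-4 libraries lay above wild-type IL-4 libraries. The log2 value with IL-4 was 1.92 ± 0.31 in knockout (adjusted p = 0.00117) and 0.97 ± 0.29 in wild type (adjusted p = 0.0628; 0.0333 by DESeq2). The interaction was 0.95 ± 0.41 (adjusted p = 0.281). The knockout call remained in all 18 alternative fits, with values from 1.81 to 2.06. The annotation holds 1 processed pseudogene of Tyms.

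Rrm2, the regulated small subunit of ribonucleotide reductase (chr12:24708241-24714146), measured 3.97 and 1.88 CPM in wild-type basal, 10.1, 4.65 and 8.03 CPM in wild-type IL-4, 1.41 and 0.984 CPM in knockout basal and 12.2, 7.06 and 7.05 CPM in knockout IL-4 libraries. The IL-4 libraries of the genotypes overlapped, and all lay above all basal libraries. The log2 value with IL-4 was 2.87 ± 0.54 in knockout (adjusted p = 0.00423) and 1.37 ± 0.48 in wild type (adjusted p = 0.108). The knockout value was 2.63 and missed the threshold without knockout basal library 2 (adjusted p = 0.0629). The large subunit Rrm1 measured 26.1 and 43.3 CPM in wild-type basal, 16, 43.1 and 29.6 CPM in wild-type IL-4, 23.0 and 16 CPM in knockout basal and 36.5, 51.1 and 52.5 CPM in knockout IL-4 libraries. Its knockout libraries did not overlap, and its IL-4 value in knockout missed the threshold (1.26 ± 0.38, adjusted p = 0.0587), while the fit of those 2 groups alone called it (1.27, adjusted p = 0.0349), as did DESeq2 (1.28, adjusted p = 0.0153) and the fits without knockout IL-4 library 1 (1.40, adjusted p = 0.0478), wild-type IL-4 library 1 (1.26, adjusted p = 0.0335) or wild-type IL-4 library 2 (1.26, adjusted p = 0.0444).

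Tk1, the thymidine kinase of the cytosol, which salvages thymidine (chr11:117815526-117826092), measured 3.78 and 3.08 CPM in wild-type basal, 7.02, 3.92 and 9.99 CPM in wild-type IL-4, 0.433 and 1.70 CPM in knockout basal and 5.69, 7.83 and 5.29 CPM in knockout IL-4 libraries. The knockout basal libraries were below all others, and IL-4 libraries overlapped between genotypes. The log2 value with IL-4 was 2.51 ± 0.59 in knockout (adjusted p = 0.0163) and 1.01 ± 0.52 in wild type (adjusted p = 0.285). The call was lost without knockout basal library 1 (1.88, adjusted p = 0.151) and by limma voom, which gave an adjusted p of 0.0843.

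Dut, which removes dUTP so that it is not built into DNA, measured 22.8 and 53.4 CPM in wild-type basal, 20.2, 17.2 and 27.5 CPM in wild-type IL-4, 13.3 and 15.7 CPM in knockout basal and 16.6, 30.2 and 19.1 CPM in knockout IL-4 libraries. The knockout basal libraries were the lowest, and wild-type basal library 2 stood above the other 9. The basal difference was -1.40 ± 0.40 (adjusted p = 0.068). It passed by DESeq2 (-1.39, adjusted p = 0.024), without wild-type basal library 1 (-1.87, adjusted p = 0.0147) and without knockout IL-4 library 2 (-1.40, adjusted p = 0.0466). Without wild-type basal library 1 its interaction passed too (1.89, adjusted p = 0.0482).

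Of the 4 checkpoint and fork protection genes, Clspn and Brca1 rose with IL-4 in knockout. Clspn encodes claspin, which passes the signal of a stalled fork to the checkpoint kinase Chk1 (chr4:126556935-126593903). It measured 15.2 and 14 CPM in wild-type basal, 16.1, 29.7 and 22.6 CPM in wild-type IL-4, 2.92 and 6.62 CPM in knockout basal and 44.1, 48.6 and 47.2 CPM in knockout IL-4 libraries. No libraries of different groups overlapped: knockout basal was the lowest, then wild-type basal, wild-type IL-4 and knockout IL-4. The rise with IL-4 was 3.27 ± 0.38 in knockout (9.67-fold, adjusted p = 9.33e-05) and 0.65 ± 0.33 in wild type (adjusted p = 0.277), and the interaction was 2.63 ± 0.47 (adjusted p = 0.00598).

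Clspn was also the member with a basal genotype difference, -1.60 ± 0.38 (3.02-fold lower in knockout, adjusted p = 0.0261). The 2 rises were called in every alternative fit, 18 of 18 for IL-4 in knockout (2.82 to 3.99) and 17 of 17 for the interaction (2.17 to 3.35). The basal difference was not: it was -1.14 without knockout basal library 1 (adjusted p = 0.237), -1.52 without wild-type basal library 1 (adjusted p = 0.0728), -1.66 without wild-type basal library 2 (adjusted p = 0.0676), -1.57 in a fit of those 2 groups alone (adjusted p = 0.0865) and -1.66 by limma voom (adjusted p = 0.0674). After IL-4 the genotypes differed by 1.03 ± 0.29 (adjusted p = 0.104), which passed by DESeq2 (adjusted p = 0.0254).

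Brca1, a repair protein that also protects stalled forks (chr11:101488764-101551955), measured 1.61 and 2.65 CPM in wild-type basal, 2.88, 7.25 and 5.56 CPM in wild-type IL-4, 0.108 and 1.70 CPM in knockout basal and 5.99, 3.23 and 9.13 CPM in knockout IL-4 libraries. All IL-4 libraries lay above all basal libraries, the genotypes overlapped, and the lowest value was 1 count. The log2 value with IL-4 was 2.69 ± 0.78 in knockout (adjusted p = 0.0476) and 1.29 ± 0.70 in wild type (adjusted p = 0.318). Leaving out any 1 library other than knockout basal library 2 or knockout IL-4 library 2 ended the knockout call, with the lowest value and the highest p without knockout basal library 1 (1.84, adjusted p = 0.242). It was 2.28 without knockout IL-4 library 3 (adjusted p = 0.132), 2.70 without knockout IL-4 library 1 (adjusted p = 0.0697) and 2.68 to 2.70 without any 1 of the 5 wild-type libraries (highest adjusted p, 0.069).

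Timeless and Tipin form the complex that holds the fork together, and neither passed. Timeless measured 8.03 and 4.11 CPM in wild-type basal, 6.77, 5.19 and 5.15 CPM in wild-type IL-4, 3.46 and 5.10 CPM in knockout basal and 7.21, 10.4 and 7.53 CPM in knockout IL-4 libraries. Tipin measured 21.2 and 9.51 CPM, 10.5, 14.3 and 13.3 CPM, 10.6 and 7.16 CPM, and 11.5, 12.4 and 16.4 CPM in the same order. In both genes the knockout IL-4 libraries lay above the knockout basal libraries, with values of 0.96 ± 0.41 (adjusted p = 0.174) and 0.60 ± 0.36 (adjusted p = 0.341). Both had negative basal differences, -0.50 ± 0.44 and -0.79 ± 0.39.

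**Figure D5:**
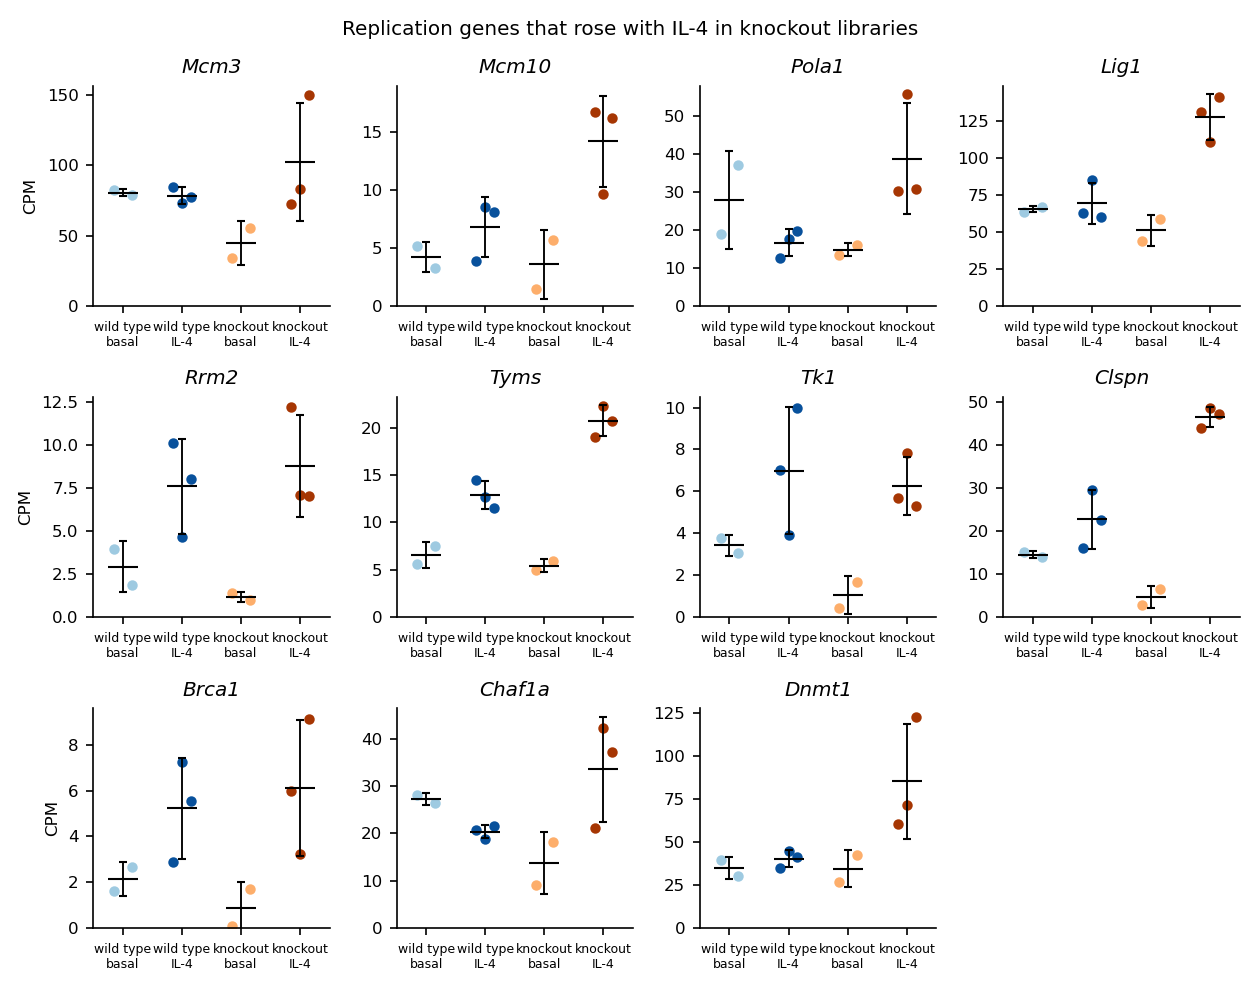
CPM (vertical axes, from 0) of the 11 members that rose with IL-4 in knockout, in each library by group, with the group mean (horizontal line) and SD (bar, which for Brca1 in knockout basal libraries reaches below the axis). Mcm10, Lig1, Dnmt1, Clspn and Tyms show knockout IL-4 libraries above every other library, for the last 2 at 44.1 to 48.6 and 19.0 to 22.3 CPM. Mcm3, Chaf1a, Rrm2, Tk1 and Brca1 overlap between the genotypes after IL-4, and Pola1 overlaps wild-type basal libraries only.

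Of the 4 genes that rebuild chromatin and copy DNA methylation behind the fork, Dnmt1 and Chaf1a rose with IL-4 in knockout. Dnmt1, the maintenance methyltransferase (chr9:20907209-20959888), measured 39.5 and 30.4 CPM in wild-type basal, 34.9, 44.7 and 41.7 CPM in wild-type IL-4, 26.9 and 42.4 CPM in knockout basal and 60.7, 71.6 and 123 CPM in knockout IL-4 libraries. All 3 knockout IL-4 libraries lay above the other 7, which overlapped. The log2 value was 1.30 ± 0.32 with IL-4 in knockout (adjusted p = 0.0227) and 0.21 ± 0.31 in wild type, and the genotypes differed after IL-4 by 1.08 ± 0.28 (adjusted p = 0.0833; 0.012 by DESeq2). This IL-4 value was 1.01 without knockout basal library 1 (adjusted p = 0.224), and without knockout IL-4 library 3 it was 0.93 (adjusted p = 0.0741).

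Chaf1a, the large subunit of the chromatin assembly factor (chr17:56040439-56072289), measured 28.1 and 26.5 CPM in wild-type basal, 20.7, 18.9 and 21.6 CPM in wild-type IL-4, 9.08 and 18.3 CPM in knockout basal and 21.1, 42.3 and 37.2 CPM in knockout IL-4 libraries. The knockout basal libraries were the lowest, and knockout IL-4 library 1 lay among the wild-type IL-4 libraries. The change with IL-4 in knockout was 1.29 ± 0.34 (adjusted p = 0.0323), and it missed the threshold without knockout basal library 1 (0.87, adjusted p = 0.287), knockout IL-4 library 2 (1.08, adjusted p = 0.0755) or knockout IL-4 library 3 (1.21, adjusted p = 0.0738). The interaction was 1.71 ± 0.47 (adjusted p = 0.0659), and passed by DESeq2 (adjusted p = 0.0194) and without knockout basal library 2 (2.31, adjusted p = 0.0315) or knockout IL-4 library 1 (1.94, adjusted p = 0.0188). Of its exonic bases, 52.5% also lie in exons of Ubxn6 on the other strand, so its reads may be mixed with those of that gene.

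Uhrf1, which brings Dnmt1 to newly copied DNA, measured 7.37 and 2.31 CPM in wild-type basal, 13.8, 5.65 and 15.8 CPM in wild-type IL-4, 2.60 and 4.74 CPM in knockout basal and 10.5, 6.53 and 8.01 CPM in knockout IL-4 libraries. Its IL-4 values were close in the 2 genotypes, 1.28 ± 0.53 in wild type (adjusted p = 0.175) and 1.17 ± 0.54 in knockout (adjusted p = 0.212), with an interaction of -0.11 ± 0.74. Chaf1b, the partner of Chaf1a, had a median of 0.952 CPM, and its value with IL-4 in knockout was 1.30 ± 0.92 (adjusted p = 0.424).

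A further 4 lists of genes from the same processes, also chosen with earlier results of these data known, were read beside the members. Their counts at an unadjusted p under 0.05 stand beside those of all 11614 genes. These were 2639 for IL-4 in knockout, 2475 for IL-4 in wild type and 1778 for the interaction. For genotype they were 1673 after IL-4 and 2057 under basal conditions. Of 29 tested replication factors outside the member list, 8 rose with IL-4 in knockout (27.6%, against 4.09% of all genes) and 0 fell, with a median of 0.48 over the list. The 3 with the smallest p were Dbf4, the activator of the origin-firing kinase (1.56 ± 0.29, adjusted p = 0.00365), Dna2, a flap nuclease (1.79 ± 0.37, adjusted p = 0.00786), and Atad5, which unloads Pcna (1.29 ± 0.29, adjusted p = 0.0128). Without knockout basal library 1 the count was 1, without library 2 it was 2, and without knockout IL-4 library 3 it was 4; Dbf4 was called in all 18 alternative fits. Pole3, an accessory subunit of polymerase epsilon, differed in its IL-4 effect between genotypes (2.07 ± 0.42, adjusted p = 0.012). It measured 56.8 and 96.0 CPM in wild-type basal, 30.2, 43.9 and 49.1 CPM in wild-type IL-4, 28.0 and 39.1 CPM in knockout basal and 63.7, 78.2 and 85.3 CPM in knockout IL-4 libraries, so IL-4 libraries were the lower ones in wild type and the higher ones in knockout. The interaction of Pole3 missed the threshold without knockout basal library 1 or wild-type basal library 2 (highest adjusted p, 0.0803). In the other 3 comparisons 0 of the 29 passed (DESeq2 called 4, 1 and 3, and limma voom 0), with 9, 2 and 6 at an unadjusted p under 0.05 for genotype after IL-4, genotype under basal conditions and IL-4 in wild type. The values nearest to passing were 1.22 ± 0.31 for Dna2 (adjusted p = 0.0803), -1.19 ± 0.32 for Pole3 (adjusted p = 0.0505) and 1.28 ± 0.37 for Dna2 (adjusted p = 0.0548).

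Other nucleotide enzymes were read beside Rrm2, Tyms and Tk1, with no test of a difference between the lists. Of 35 other enzymes of nucleotide synthesis and salvage, 0 rose with IL-4 in knockout and 1 fell, the nucleoside diphosphate kinase Nme1 (-0.98 ± 0.24, adjusted p = 0.0215), and the median of the list was -0.07. Both counts are near the shares of all genes, 4.09% higher and 3.51% lower. DESeq2 called 1 of them higher and 2 lower, limma voom called 0 higher and 1 lower, and 7 had an unadjusted p under 0.05 in either direction. Under basal conditions the pyrimidine kinase Cmpk1 was lower in knockout (-1.34 ± 0.33, adjusted p = 0.0349), with 209 and 109 CPM in wild-type and 57.7 and 68.2 CPM in knockout basal libraries. Both calls were lost in some fits without 1 library, Nme1 without knockout basal library 1 or 2 or knockout IL-4 library 3, and Cmpk1 without either knockout basal library, wild-type basal library 1 or any wild-type IL-4 library. In the other 3 comparisons 0 of the 35 passed, where 7, 9 and 4 had an unadjusted p under 0.05 and DESeq2 called 0, 3 and 0; the smallest p belonged to Mthfd1 for genotype after IL-4 (-0.79 ± 0.27), Nme1 for IL-4 in wild type (-0.77 ± 0.24) and Cad for the interaction (-2.03 ± 0.62).

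Of 17 tested genes of the checkpoint and fork repair outside the member list, 1 rose in each IL-4 comparison (5.88%), near the shares of all genes called higher, 4.09% in knockout and 3.26% in wild type. The checkpoint kinase Chek1, which claspin helps to activate, rose in knockout (2.30 ± 0.54, adjusted p = 0.0161), from 0.973 and 1.61 CPM in basal to 6.80, 8.45 and 4.17 CPM in IL-4 libraries, and the call was lost without either knockout basal library (highest adjusted p, 0.143). Its interaction was 1.81 ± 0.71 (adjusted p = 0.222) and its basal difference -1.32 ± 0.57 (adjusted p = 0.235). The phosphatase Cdc25a rose with IL-4 in wild type (1.01 ± 0.28, adjusted p = 0.0438), a call that was lost without either wild-type basal library and without wild-type IL-4 library 2 or 3. After IL-4 the smallest p between genotypes was that of Brca2 (0.93 ± 0.36, adjusted p = 0.249). By edgeR 0 passed in the 2 genotype comparisons and the interaction, where 2, 1 and 2 had an unadjusted p under 0.05 and DESeq2 and limma voom called 0.

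Among 18 regulators of S phase genes, 3 rose with IL-4 in knockout (16.7%, against 4.09% of all genes). The list holds the E2F and RB families, Tfdp1, Tfdp2, Mybl2, Cdk2 and the cyclins Ccne1, Ccne2 and Ccna2. The 3 were the cyclins Ccne2 (2.39 ± 0.37, adjusted p = 0.000999) and Ccna2 (3.43 ± 0.57, adjusted p = 0.00168) and the late repressor E2f8 (3.25 ± 0.79, adjusted p = 0.0241). The E2f8 call was lost without either knockout basal library (2.95 and 3.67) or knockout IL-4 library 3 (2.29). Ccne2, the cyclin that drives entry into S phase, measured 15.9 and 14.3 CPM in wild-type basal, 8.88, 18.9 and 16.7 CPM in wild-type IL-4, 4.11 and 3.49 CPM in knockout basal and 15.7, 20.0 and 24.1 CPM in knockout IL-4 libraries. It was lower in knockout under basal conditions (-1.99 ± 0.39, adjusted p = 0.00851) and had an interaction of 2.42 ± 0.49 (adjusted p = 0.0123), the same directions as Clspn. The basal call was lost without either knockout basal library and the interaction without knockout basal library 2 (adjusted p = 0.0709). E2f2, an activating E2F, went the other way under basal conditions, 29.8 ± 3.35 CPM (SD, n = 2) in knockout against 10.9 ± 0.0547 CPM in wild type (log2 1.45 ± 0.34, adjusted p = 0.0263), and rose with IL-4 in wild type (1.37 ± 0.32, adjusted p = 0.0197). The basal E2f2 call was lost without any 1 of the 4 basal libraries (highest adjusted p, 0.137), and the IL-4 call without either wild-type basal library or wild-type IL-4 library 2 or 3 (highest adjusted p, 0.118). After IL-4, 0 of the 18 passed between genotypes, 5 had an unadjusted p under 0.05, DESeq2 and limma voom each called 1, and the smallest p was that of Rb1 (1.06 ± 0.24, adjusted p = 0.0563).

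Mki67, a marker of cycling cells, was read as a check. It measured 14.4 and 21.2 CPM in wild-type basal, 36.6, 69.9 and 62.9 CPM in wild-type IL-4, 10.2 and 11.3 CPM in knockout basal and 164, 129 and 412 CPM in knockout IL-4 libraries, with no overlap between groups. Its change with IL-4 was 4.45 ± 0.53 in knockout (adjusted p = 0.000229), called in all 18 alternative fits, and 1.66 ± 0.46 in wild type (adjusted p = 0.049), lost in 7 of 18: by limma voom and without any 1 of the 4 basal libraries or wild-type IL-4 library 2 or 3 (highest adjusted p, 0.252). The interaction was 2.79 ± 0.63 (adjusted p = 0.0297), lost in 6 of 17 fits: by limma voom and without either knockout basal library, wild-type basal library 2 or wild-type IL-4 library 1 or 3 (highest adjusted p, 0.149). After IL-4 the genotypes differed by 2.05 ± 0.39 (adjusted p = 0.0282), a call lost in 4 of 18 fits. These were the fit of the 2 groups alone (adjusted p = 0.0619) and those without any 1 of the 3 wild-type IL-4 libraries (highest adjusted p, 0.141).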

How the data were processed

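The authors deposited 1 table of read counts per gene for the 10 libraries; per the submitters' processing notes, STAR, HTSeq and the mm10 build were used, without versions, and the strand setting is not given in the sources used here. Counts were tested as deposited with edgeR 4.0.16 in R 4.3.3 (limma 3.58.1): TMM scaling, filterByExpr (minimum count 10, minimum total 15), 1 model of the 4 group means over all libraries, robust quasi-likelihood tests and Benjamini-Hochberg adjustment over the 11614 genes tested, called at an adjusted p under 0.05. Log2 values are given with their standard error. CPM uses TMM-scaled totals; the 10 totals of 8762403 to 15024073 counts set the precision of low genes. The groups are those of the labels, 2 or 3 libraries each, and the table columns match the library titles.

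Alternatives were DESeq2 1.42.0, limma voom, other scalings and filters, the 2 groups alone, the replicate number as a block, and each library left out. The scripts were tested on simulated data. Members and lists were chosen with earlier results of these data known. By rule, library values are given for every member passing in at least 1 comparison and, per role, the 2 with the smallest p in each genotype comparison; of other lists, up to 3 passing genes per comparison, or 1 where none passed; and Mki67 and Lyz2. A gene that this rule also includes is not reported here. Exons and overlaps came from GENCODE M21 (mm10) and promoters from RefSeq (GRCm38.p6). The 4 listed symbols Ighm, Ighd, Trac and Trbc2 were not analysed here.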

Additional observations from a re-analysis of the deposited data

Results flagged for a closer look

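The effect of IL-4 differed between the genotypes, by the interaction test of edgeR, for 2 members and 2 genes of the other lists. On the log2 scale the change with IL-4 in knockout exceeded the one in wild type by 2.63 for Clspn (adjusted p = 0.00598) and 2.13 for Pola1 (adjusted p = 0.0279). The excess was 2.07 for Pole3 (adjusted p = 0.012) and 2.42 for Ccne2 (adjusted p = 0.0123). Only the Clspn call held in all 17 alternative fits. Those on Pola1, Pole3 and Ccne2 were lost in 5, 2 and 1 of the 17. Groups of 2 and 3 libraries are too small to be searched for single libraries that stand apart.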

How the results depend on the processing

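Among the 14 called values of members, 3 were called in every fit without 1 library (Tyms and Clspn with IL-4 in knockout, and the interaction of Clspn), and no called value changed sign under any alternative. Of 211 uncalled values, 47 of 3753 recomputed ones were called, and 155 changed sign while uncalled. The count of members higher with IL-4 in knockout, 11, became 7 in a fit of the 2 groups alone and ran from 3 to 11 without 1 library. Members higher with IL-4 in wild type, 0, became 1 by DESeq2, 1 with library totals and 2 with no filter, and members lower, 0, became 1 with no filter. Members with a higher interaction, 2, became 4 by DESeq2, 8 with no filter and 1 to 4 without 1 library. Members higher in knockout after IL-4, 0, became 4 by DESeq2, 4 with no filter and 0 to 1 without 1 library. Members lower in knockout under basal conditions, 1, became 2 by DESeq2, 0 by limma voom, 4 with no filter, 0 with the 2 groups alone and 0 to 3 without 1 library. Over all genes, calls for IL-4 in knockout, 883, became 1423 with no filter and 327 to 931 without 1 library, and those for IL-4 in wild type, 704, became 1144 by DESeq2, 1209 with no filter and 302 to 764 without 1 library. Interaction calls, 326, became 594, 819 and 182 to 397 in the same order, those for genotype after IL-4, 96, became 385, 505 and 21 to 129, and those for genotype under basal conditions, 481, became 841, 1034 and 208 to 550. Scaling by library totals put the median of all genes at 0.13 in place of -0.02 for genotype under basal conditions, at -0.10 in place of 0.00 for IL-4 in knockout and at -0.17 in place of 0.01 for the interaction. The share of higher genes among those called went with it from 63.0% to 79.3% for genotype under basal conditions, from 53.8% to 65.3% for IL-4 in wild type, from 53.8% to 42.0% for IL-4 in knockout and from 36.5% to 25.1% for the interaction. With no filter it was 57.4% in place of 42.7% for genotype after IL-4, 43.9% for genotype under basal conditions and 59.5% for the interaction. The cause of these shifts was not tested. Where a basal group was left with 1 library, its spread was taken from the other groups.

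With the replicate number as a block (replicate block), 6 members in place of 11 were called higher with IL-4 in knockout and 554 genes in place of 883 were called; the calls on Mcm3, Mcm10, Brca1, Chaf1a and Dnmt1 were lost. Deviations from the group means of libraries with the same number correlated between -0.11 and 0.062. These values show no sign of pairing, but groups of 2 or 3 libraries are too small for them to exclude it. Low counts limit Orc1, Pole, Brca1, Cdc6, Tk1, Gins1, Chaf1b and Cdc45, which had 0 to 10 counts in knockout basal library 1.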
